A study of Drosophila melanogaster with 36 samples.

Results

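The response of the larval brain to the H3.2K36R replacement was compared, gene by gene, with its response to loss of the enzyme Set2. For each gene the change from H3.3WTH3.2HWT to H3.3WTH3.2K36R was taken first, then the change from yw to Set21, each averaged over both sexes, and the second was subtracted from the first. All genes with enough reads entered, 12167 of the 17606 in the count table, and 24 of the 36 libraries of the study belong to the comparison, 6 per genotype. Each genotype gave 3 libraries from males and 3 from females. The material was brain of wandering third-instar larvae of Drosophila melanogaster, raised at 25 °C with 50 larvae to a vial, profiled by polyA-selected mRNA sequencing. H3.3WTH3.2K36R carries arginine in place of lysine 36 in the histone H3.2 that a transgene supplies. H3.3WTH3.2HWT carries wild-type H3.2 in its place, and both strains have wild-type H3.3 as their names state. Set21 is a Set2 mutant, and yw is a laboratory strain whose name stands for yellow and white mutations. The series' design text states that each control matches its mutant in genetic background, and the labels give no further alleles. Nothing in the labels tells if libraries of 1 group are separate pools of brains, so p-values measure only the spread between these libraries.

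Methylation of lysine 36 of histone H3 is laid down over the bodies of transcribed genes. In Drosophila Set2 places the trimethyl mark, while NSD and Ash1 place the lower states. H3.2 is the replication-coupled histone, made in S phase from the histone gene cluster, and H3.3 is deposited independently of replication. A K36R replacement of H3.2 therefore removes all methylation states of that histone, and acetylation too, but leaves lysine 36 of H3.3. Loss of Set2 removes an enzyme that acts on both histones. In flies the mark is also read by MSL3, a subunit of the complex that raises transcription of the male X chromosome. The comparison asks which effects of the residue are not seen when only the enzyme is lost, and the reverse.

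Between 83.8 M and 143.8 M reads were counted in genes per library (median 102.4 M). The neuronal genes elav and nSyb stood at 839 to 1110 and 439 to 507 CPM (reads scaled to library size with TMM factors) across the 24 libraries, and the glial gene repo at 100 to 133 CPM. The neuroblast gene dpn was less even, at 24.1 to 29.9 CPM in H3.3WTH3.2K36R and 34.7 to 45.6 CPM across the other genotypes. Set2 itself stood at 27.8, 30.3 and 33.3 CPM (lowest, median and highest of 6 libraries) in Set21 and at 181, 192 and 200 CPM in yw. It stood at 160, 165 and 168 CPM in H3.3WTH3.2K36R and at 166, 174 and 184 CPM in H3.3WTH3.2HWT. The fall in Set21 was −2.65 on the log2 scale (adjusted p = 1.6e-33, edgeR's quasi-likelihood test with Benjamini-Hochberg adjustment over all genes tested, used for all p-values across genes here). Female libraries of H3.3WTH3.2HWT all held more roX2 (7.52 to 15.5 CPM) than those of Set21 (at most 4.03 CPM) and yw (at most 3.18 CPM). H3.3WTH3.2K36R females, at 1.09 to 7.99 CPM, overlapped with both of these. The male-specific noncoding RNA roX2 reached 15.5 CPM in H3.3WTH3.2HWT females, 35.7% of the male mean of that genotype, and 7.99 CPM in H3.3WTH3.2K36R females, 28.4% of theirs. In Set21 and yw females its highest values were 9.18% and 4.46% of the male means. The Y-linked gene FDY was found at 3.43 to 13.3 CPM in H3.3WTH3.2HWT females and at 1.57 to 12.8 CPM in H3.3WTH3.2K36R females, against 14.1 to 16.7 and 42.2 to 47.6 CPM in their males. Its level differed by strain in males too, at 3.84 to 6.35 CPM in Set21 and 0.0801 to 0.389 CPM in yw, so it is no measure of male RNA across strains. Counts below are also given without the 1 female library of each histone strain with the most roX2, a choice made after seeing the data.

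The difference of the responses passed the test in 5038 genes, 41.4% of those tested. It was positive in 2419 genes (19.9%), which stood higher after H3.2K36R than after Set2 loss relative to their controls, and negative in 2619 (21.5%). Without the female libraries named above, 2316 were higher and 2433 lower, and 4560 of the 5038 were still called. The H3.2K36R response alone called 2360 genes higher (19.4%) and 2491 lower (20.5%). The Set2 response called 3512 higher (28.9%) and 3359 lower (27.6%). Of the 4851 and 6871 genes called in each, 3207 were called in both, which was 66.1% of the first list and 46.7% of the second, and 2491 of these (77.7%) moved in the same direction. Across all genes the responses had a Pearson correlation of 0.362 and a Spearman correlation of 0.317, given as a description over 12167 genes from pairs that share no library. The median size of the response was 0.139 for H3.2K36R and 0.214 for Set2 on the log2 scale, and that of the difference was 0.212, with a median standard error of 0.0846. Differences of at least 1 (log2) were found in 485 called genes on the positive side and 623 on the negative side. In 3921 genes, 32.2% of those tested, the difference was called and the responses of the 2 mutants' libraries did not overlap in either sex.

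**Figure D1:**
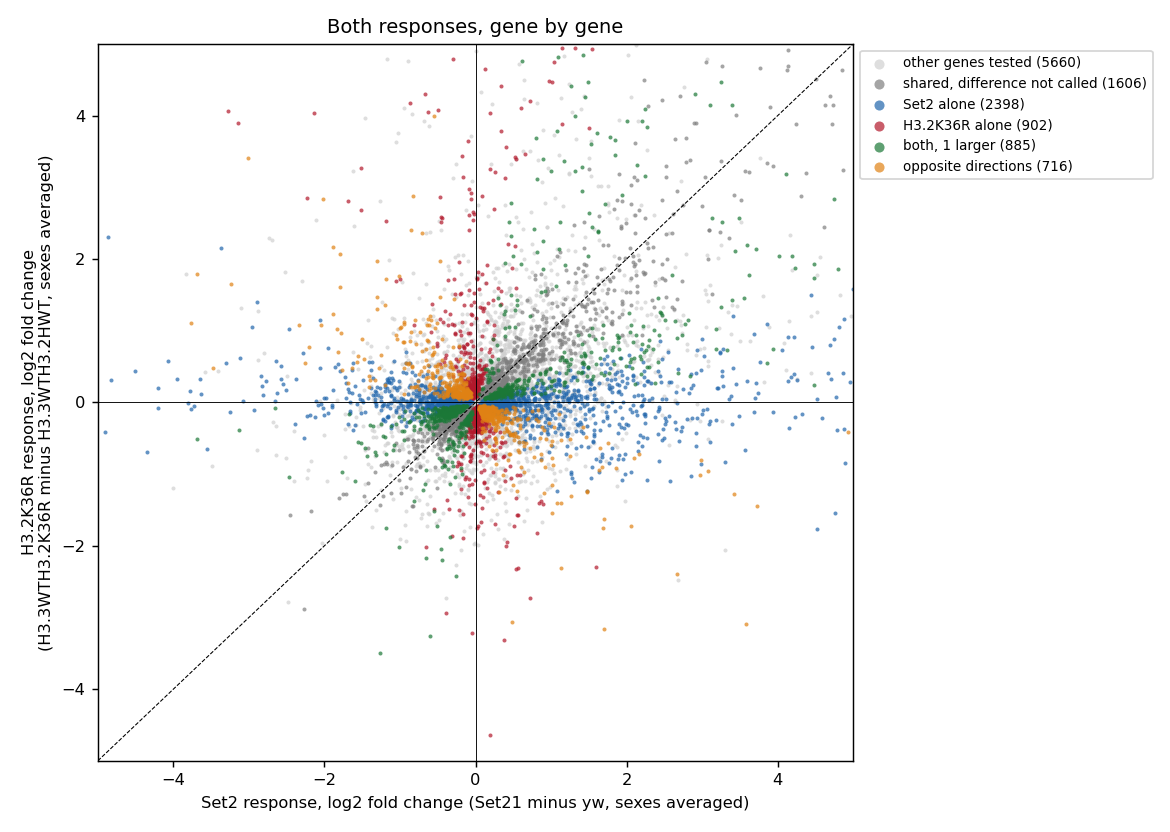
Each point is 1 gene. The x axis is its Set2 response and the y axis its H3.2K36R response, both as log2 fold change with sexes averaged, and colours give the class of the call. Genes on the dashed diagonal have equal responses, and 11993 of the 12167 genes lie within the drawn limits of ±5.

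Genes were sorted by which responses passed. A group of 902 genes had the difference and the H3.2K36R response called but not the Set2 response, 389 of them higher and 513 lower in H3.3WTH3.2K36R, and "in H3.2K36R alone" below means this group. A missed call is not a response of 0, so the 95% interval of the Set2 response was read as well. It lay within 0.5 (log2) of 0 for 262 of the 389 and 449 of the 513. The reverse group, called in Set2 and the difference but not in H3.2K36R, held 2398 genes, 1226 higher and 1172 lower in Set21, called "in Set2 alone" below. The H3.2K36R interval lay within the same bound for 847 and 1020 of these. A further 716 genes were called in both in opposite directions, and 885 in both in 1 direction with a difference in size. In 1606 genes both were called in 1 direction and the difference was not, 779 of them higher and 827 lower. Of the remaining genes, 137 were called in the difference alone and 5523 had no such pattern. Without the female libraries named above the groups held 779, 2491, 625, 697 and 1454 genes in the same order.

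A difference of responses also holds the difference between the controls, so genes were also sorted by which genotype, if any, stood apart. A genotype was counted as apart when all its libraries lay above, or all below, every library of the other 3 genotypes in both sexes. Among the 5038 genes Set21 was apart in 28.4%, H3.3WTH3.2K36R in 16.7%, yw in 15.3% and H3.3WTH3.2HWT in 2.1%. No genotype was apart in 2190 of them, and these shares were not computed over all genes tested. Of the 389 genes higher in H3.2K36R alone, H3.3WTH3.2K36R was apart in 194 (49.9%) and H3.3WTH3.2HWT in 22 (5.66%). Of the 1226 genes higher in Set2 alone, Set21 was apart in 453 (36.9%) and its control yw in 246 (20.1%). Of the 1172 lower in Set2 alone, Set21 was apart in 408 (34.8%) and yw in 200 (17.1%). In 1458 of the 5038 genes (28.9%) the controls differed from each other by more than the mutants did, and in 952 of these the mutants were not called different. Of the 2398 Set2-alone genes 799 were of this kind, as were 304 of the 885 called in both with 1 larger. The H3.2K36R-alone genes had 169 of 902 and the opposite genes 130 of 716. Where the difference was not called, the control gap was the larger in 769 of the 1606 shared genes and 2343 of the 5523 with no pattern. For called genes with the larger control gap, a Set2 effect cannot be told apart from a background difference between the strains.

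**Figure D2:**
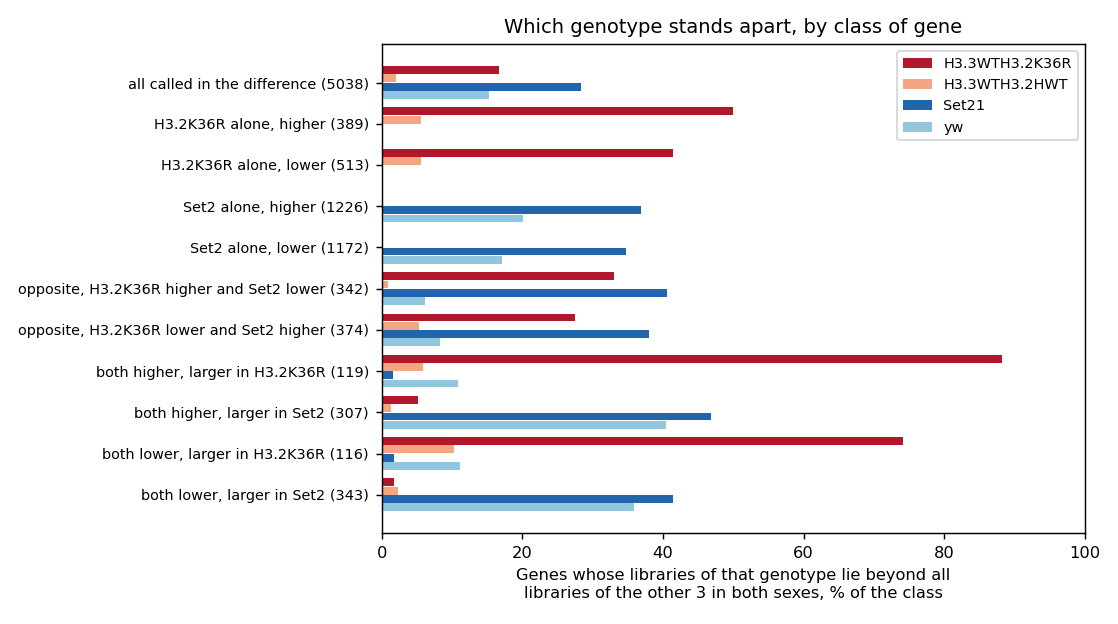
For each class of gene the bars give the percentage in which 1 genotype's libraries lie beyond all libraries of the other 3 in both sexes, by genotype. H3.3WTH3.2K36R is apart in 88.2% of the genes that rose in both with the larger change in H3.2K36R, while yw is apart in 40.4% of those that rose in both with the larger change in Set2.

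Several genes that serve the germline stood higher in H3.3WTH3.2K36R than in the other 3 genotypes. nanos, a translational repressor that germ cells need, stood at 6.51, 9.81 and 14.3 CPM (lowest, median and highest) in H3.3WTH3.2K36R. It stood at 0.133, 0.177 and 0.331 CPM in H3.3WTH3.2HWT, at 0.0933, 0.142 and 0.189 CPM in Set21 and at 0.0173, 0.105 and 0.129 CPM in yw. The H3.3WTH3.2K36R libraries did not overlap with any other, and the difference of responses was 4.98 (SE 0.39, adjusted p = 2.3e-11), with a Set2 response of 0.64 that did not pass (adjusted p = 0.062). tut, the RNA-binding partner of Bam in male germ cells, stood at 6.21 to 7.83 CPM in H3.3WTH3.2K36R and at most at 0.613, 0.826 and 1.16 CPM in H3.3WTH3.2HWT, Set21 and yw. bam, the differentiation factor of germline stem cells, stood at 13.1 to 19.6 CPM in H3.3WTH3.2K36R and 3.17 to 4.8 CPM in its control. In Set21 it stood at 0.736 to 1.44 CPM and in yw at 1.11 to 1.97 CPM, so that it rose in H3.2K36R (1.98) and fell in Set2 (−0.47), a difference of 2.44 (adjusted p = 3.4e-12). vas, the germline RNA helicase Vasa, added after values were seen, had a median of 4.47 CPM in H3.3WTH3.2K36R and 2.30 CPM in its control, with a difference of 1.07 (adjusted p = 2.5e-05) and a Set2 response of −0.10 (adjusted p = 0.52).

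Of 27 listed genes of germ cell identity and oogenesis 24 passed the filter on low counts. The difference was higher in 10 and lower in 2, with a median of 0.33 beside −0.01 over all genes tested. The H3.2K36R response alone was higher in 16 and lower in 1, and the Set2 response higher in 12 and lower in 3. Medians were under 1 CPM in every genotype for 9 of the 27. A gene near 0 CPM elsewhere can pass the filter through the H3.3WTH3.2K36R libraries alone, so nothing is read from these counts or the median. Some genes of the list rose in both mutants. zpg, the germline gap junction protein, had medians of 5.02 CPM in H3.3WTH3.2K36R, 0.068 CPM in H3.3WTH3.2HWT, 0.188 CPM in Set21 and 0.0283 CPM in yw, and rose by 5.86 and 2.74 (log2). Marf1, an RNA regulator of the oocyte that was added after values were seen, had medians of 121, 7.11, 37.8 and 3.56 CPM in the same order. It rose by 4.15 in H3.2K36R and 3.40 in Set2, with a difference of 0.75 (adjusted p = 0.0043). A drop in the number of cells of a type and a drop in RNA per cell cannot be told apart in these bulk libraries, and the same holds for a rise.

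Paralogs of housekeeping genes that flies use in the germline were among the largest differences. RpL22-like, a paralog of the ribosomal protein gene RpL22, stood at 14.6, 23.5 and 29.9 CPM in H3.3WTH3.2K36R and at 0.0205, 0.123 and 0.31 CPM in H3.3WTH3.2HWT. In Set21 it stood at 0.264, 0.343 and 0.699 CPM and in yw at 0.0221, 0.0647 and 0.147 CPM. It rose in both mutants, by 7.40 in H3.2K36R and 2.42 in Set2, and the difference was 4.98 (SE 0.73, adjusted p = 2.7e-06). eIF4E3, a paralog of the cap-binding protein, stood at 4.12 to 5.64 CPM in H3.3WTH3.2K36R and at or below 0.261 CPM in every other library, a difference of 5.08 (adjusted p = 7.8e-10). betaNACtes3, a testis paralog of the nascent polypeptide-associated complex, stood at 2.7 to 6.47 CPM against at most 0.32 CPM elsewhere (difference 4.08, adjusted p = 3.8e-10), and its Set2 response was 0.33 (adjusted p = 0.29). RpS10a and ATPsynepsilonL had differences of 4.15 and 3.61. RpS5b, the ovary paralog of RpS5a, stood at 25.8 to 36.4 CPM and 11.5 to 15.1 CPM in H3.3WTH3.2K36R and its control, and at 7.02 to 13.4 and 7.43 to 10.6 CPM in Set21 and yw. The call of RpL37-2 (difference 4.77, adjusted p = 0.027) rested on few reads, since its median in H3.3WTH3.2HWT was 0 CPM, and it was lost without the third female yw library (adjusted p = 1) and with the replicate block (adjusted p = 0.081). RpS19b took another course. It stood at 0.264 to 0.541 CPM in Set21 and 1.01 to 1.36 CPM in yw, while 1.33 to 2.62 and 0.914 to 1.68 CPM in the histone strains overlapped.

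Only 21 of the 34 paralogs listed passed the filter, and a gene this low can pass through the H3.3WTH3.2K36R libraries alone, so nothing is read from their counts. They were 13 higher and 1 lower in the difference. The summed level of all 34 ran from 118.6 to 164.4 CPM in H3.3WTH3.2K36R, 35.03 to 36.63 CPM in H3.3WTH3.2HWT, 23.62 to 33.01 CPM in Set21 and 25.82 to 27.95 CPM in yw. The sum over 26 testis genes ran from 101.2 to 105.5 CPM, 35.28 to 36.95 CPM, 36.38 to 40.05 CPM and 30.61 to 32.73 CPM in the same order. In both sums the H3.3WTH3.2K36R libraries lay above all others. The testis sum was carried by blanks and Dhc98D, without which it ran from 36.22 to 40.42 CPM, 32.08 to 34.75 CPM, 31.52 to 33.35 CPM and 28.14 to 30.61 CPM. Medians were under 1 CPM in every genotype for 20 of the 34 paralogs and 18 of the 26 testis genes. No member of either list was at 0 in all 24 libraries, and whether other cells in the sample took part was not tested.

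Among testis genes, blanks, a double-stranded RNA-binding protein of the male germline, stood at 38.4, 40.7 and 42 CPM in H3.3WTH3.2K36R and 0.973, 1.45 and 2.02 CPM in its control. In Set21 it stood at 2.21, 3.8 and 4.41 CPM and in yw at 0.921, 1.34 and 1.74 CPM. blanks therefore rose in both mutants, by 4.84 and 1.42 (log2), with a difference of 3.43 (adjusted p = 3.7e-13). Dhc98D, a dynein heavy chain, moved alike, with medians of 24.7, 1.13, 2.98 and 0.974 CPM in H3.3WTH3.2K36R, H3.3WTH3.2HWT, Set21 and yw (difference 2.98). can, a testis-specific TAF protein, rose in Set2 alone, from a median of 2.21 to 3.48 CPM (0.69), with an H3.2K36R response of 0.08 (adjusted p = 0.41). Of the 13 testis genes that passed the filter 4 were higher and 2 lower in the difference. Of 19 genes of meiotic cohesion and recombination 6 were higher and 6 lower. The shares called were 46.2% for the testis list and 63.2% for the meiotic list, beside 41.4% over all genes tested. corolla, of the synaptonemal complex, stood at 2.36 to 4.2 CPM in H3.3WTH3.2K36R and no higher than 1 CPM in any other library (difference 2.98, adjusted p = 5.7e-08). sunn, a cohesion protein, rose more in Set2 (3.63) than in H3.2K36R (1.78).

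The piRNA pathway, which silences transposons in the germline, split by member. Of 26 genes that passed the filter out of 27 listed, 12 were higher and 4 lower in the difference. That was 61.5% called, beside 41.4% over all genes tested. qin, a Tudor-domain protein of the piRNA amplification loop, rose in H3.2K36R alone. It stood at 15.2, 18.4 and 19.6 CPM in H3.3WTH3.2K36R and at 2.68, 2.92 and 3.02 CPM in its control, while Set21 (2.22 to 4.38 CPM) and yw (2.9 to 3.88 CPM) overlapped (difference 2.69, adjusted p = 1.3e-16). krimp, another Tudor-domain protein, rose by 1.95 in H3.2K36R and 0.39 in Set2. Its medians of 9.92 CPM in H3.3WTH3.2HWT and 2.58 CPM in yw also differed between the controls. del, which encodes Deadlock of the Rhino complex on piRNA clusters, stood at 4.25, 4.82 and 5.02 CPM in Set21 and 11.5, 12.8 and 14 CPM in yw, and at 13.7 to 16.9 and 12.7 to 13.5 CPM in the mutant and control histone strains. It fell in Set2 (−1.42) and rose slightly in H3.2K36R (0.22), a difference of 1.63 (adjusted p = 1.4e-15). tej, a Tudor-domain protein, went the same way, with responses of −1.63 and 0.48. The remaining members named here were chosen after values were seen. cuff, the partner of Deadlock and Rhino, fell in Set2 (−0.86) with an H3.2K36R response of 0.04 (adjusted p = 0.72), while rhi rose in both (3.38 in H3.2K36R and 2.84 in Set2, difference not called). AGO3 and piwi, both Argonaute proteins, rose more in Set2 (2.60 and 1.59) than in H3.2K36R (1.78 and 0.88). aub, the third of that family, rose by 1.05 in both.

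Several regulators of neural stem cells fell in H3.3WTH3.2K36R and fell less, or were not called, in Set21. cherub, a long noncoding RNA known from neuroblasts, stood at 1510, 2070 and 2390 CPM in H3.3WTH3.2K36R and 8310, 10600 and 11800 CPM in its control. In Set21 it stood at 9070, 9230 and 10800 CPM and in yw at 10500, 11400 and 13000 CPM. It fell by 2.42 in H3.2K36R and 0.26 in Set2, a difference of −2.15 (SE 0.12, adjusted p = 4.9e-14). cas, which encodes the temporal factor Castor, stood at 27.6 to 34.1 CPM in H3.3WTH3.2K36R, 90.2 to 132 CPM in its control, 106 to 150 CPM in Set21 and 136 to 158 CPM in yw (difference −1.55, adjusted p = 1.5e-11). pros, the homeodomain factor that ends neuroblast division in daughter cells, had medians of 8360, 14300, 13500 and 14700 CPM (difference −0.56, adjusted p = 5.1e-06). numb, the Notch antagonist inherited by 1 daughter cell, fell in H3.2K36R alone. It stood at 91.6 to 100 CPM in H3.3WTH3.2K36R and 124 to 137 CPM in its control, with 139 to 148 and 130 to 141 CPM in Set21 and yw (difference −0.49, Set2 response 0.07, adjusted p = 0.068).

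All 23 listed neural stem cell genes passed the filter. The H3.2K36R response was lower in 17 and higher in 3, the Set2 response lower in 13 and higher in 2, and the difference lower in 9 and higher in 1. The share called in the difference was 43.5%, near the 41.4% over all genes tested, where 21.5% were lower and 19.9% higher. The median response of the 23 genes was −0.37 in H3.2K36R and −0.18 in Set2, beside 0.00 and 0.01 over all genes tested. The summed level ran from 15420 to 18940 CPM in H3.3WTH3.2K36R and from 26290 to 35010 CPM over the other 3 genotypes, a sum that cherub and pros dominate. Members beyond these were chosen after values were seen. grh, a temporal factor, and insc, which orients the division, had differences of −0.49 and −0.36, while mira, klu and svp fell in both mutants with no called difference. Imp, an RNA-binding protein of early neuroblasts, rose in H3.2K36R (0.18) and was the member with a higher difference (0.25, adjusted p = 1.4e-04).

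Cell cycle genes fell more often in H3.2K36R than in Set2. Of 35 tested, 25 were lower and 0 higher in H3.2K36R, 15 lower and 6 higher in Set2, and 11 lower and 4 higher in the difference. The difference was called in 42.9% of them, near the 41.4% over all genes tested. Another 10 moved alike in both mutants with no called difference. Orc1, of the origin recognition complex, rose in Set2 alone, from 28.3 to 31.6 CPM in yw to 39.7 to 51.1 CPM in Set21, with 24.2 to 27.6 and 24.4 to 29.5 CPM in the mutant and control histone strains (difference −0.62, adjusted p = 4.3e-08). BubR1, of the spindle checkpoint, and aurA, a mitotic kinase, fell in H3.2K36R alone (−0.24 and −0.21). Haspin, the kinase of threonine 3 of histone H3, stood at 42.1 to 46.1 CPM in H3.3WTH3.2K36R and 59.5 to 67.9 CPM in its control, while Set21 (80.5 to 88 CPM) and yw (81.7 to 87 CPM) overlapped. Its difference was −0.56 (adjusted p = 6.5e-09), and its controls also differed. Parp1, the poly(ADP-ribose) polymerase, stood at 54.4 to 75 CPM in H3.3WTH3.2K36R and 115 to 127 CPM in its control, and fell by 0.91 against 0.19 in Set2. ste24a, a prenyl protease, and sals, a regulator of sarcomere length, also fell in H3.2K36R alone, by 0.28 and 1.07. Of 12 eye disc genes 10 were lower and 0 higher in H3.2K36R and 5 were lower and 2 higher in the difference. Among the lower was ato, the proneural factor of photoreceptors (4.14 to 5.07 CPM against 6.8 to 8.74 CPM, difference −0.67). The medulla and eye selector list, which holds optic lobe factors, had 3 of 12 higher and 1 lower in the difference.

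**Figure D3:**
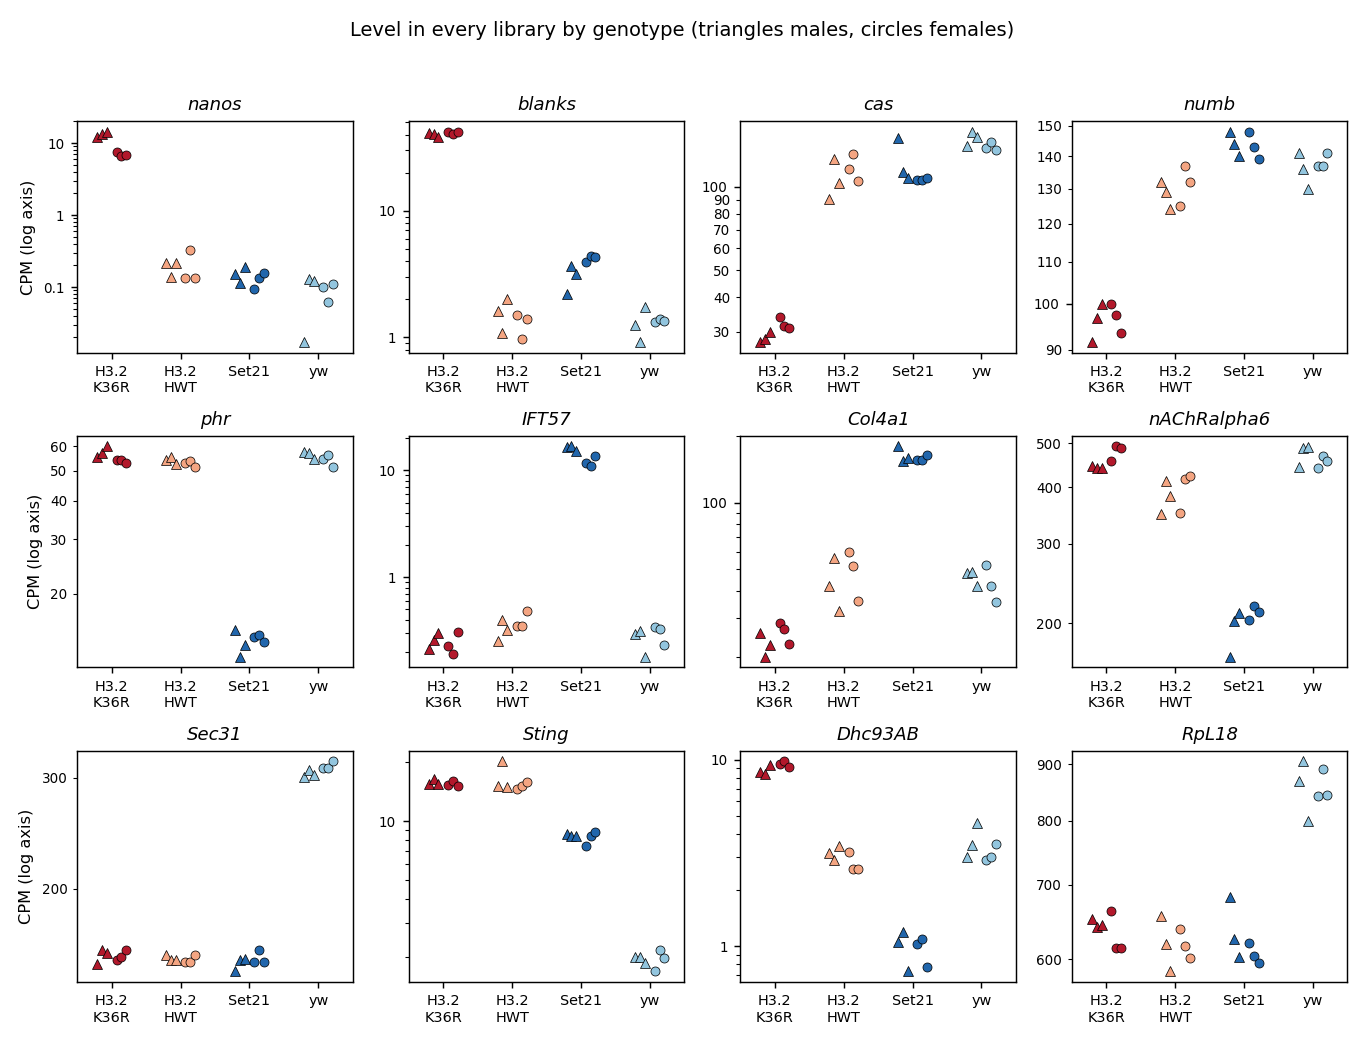
Level in CPM on a log axis of 12 genes in every library, by genotype, with triangles for males and circles for females. nanos, blanks, cas and numb stand apart in H3.3WTH3.2K36R, phr and IFT57 in Set21, and Sec31, Sting and RpL18 in yw, while Dhc93AB and Col4a1 move apart in both mutants.

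Among the largest differences on the Set2 side, IFT57, of the intraflagellar transport complex, stood at 11, 14.4 and 16.8 CPM in Set21 and at 0.18, 0.303 and 0.342 CPM in yw. It stood at 0.192, 0.242 and 0.305 CPM in H3.3WTH3.2K36R and 0.252, 0.35 and 0.482 CPM in its control. Set21 lay above all other libraries, with a Set2 response of 5.63 against −0.52 in H3.2K36R and a difference of −6.15 (SE 0.24, adjusted p = 4.0e-18). Tektin-C, a filament protein of ciliary microtubules, stood at 16.9, 22.2 and 37.5 CPM in Set21, 0.289, 0.393 and 0.58 CPM in yw and no higher than 0.969 CPM in the histone strains (difference −5.46, adjusted p = 3.4e-17). rempA, an intraflagellar transport protein, rose in both, by 1.56 in Set2 and 0.37 in H3.2K36R, and so did Dhc62B, an axonemal dynein heavy chain, by 1.21 and 0.56. Ugt302K1, a UDP-glycosyltransferase, stood at 20 to 25.6 CPM in Set21 and 0.523 to 1.04 CPM in yw, with 1.04 to 2.2 and 1.03 to 1.86 CPM in the mutant and control histone strains (difference −4.38, adjusted p = 5.9e-15). GILT3, a thiol reductase, stood at 11 to 15.7 CPM in Set21 and at or below 1.75 CPM in all other libraries.

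Smaller rises were as clear against the spread. AGO2, the Argonaute of the small interfering RNA pathway, stood at 432 to 458 CPM in Set21 and 302 to 316 CPM in yw, while H3.3WTH3.2K36R (350 to 358 CPM) and its control (348 to 363 CPM) overlapped. Its Set2 response was 0.53 and its H3.2K36R response 0.00 (adjusted p = 0.97). Herc4, a ubiquitin ligase, stood at 209 to 233 CPM in Set21 and 126 to 139 CPM in the other 3 genotypes. Among genes of DNA damage and repair, Ku80, which binds broken ends, rose by 0.64 in Set2 and 0.13 in H3.2K36R. Of 24 such genes 16 were higher and 4 lower in Set2 and 15 higher and 3 lower in H3.2K36R. The difference was lower in 9 and higher in 5, a share of 58.3% called beside 41.4% over all genes tested. Ets21C, a stress-response transcription factor, rose in both, by 1.77 and 0.41, with a gap between the controls too (7.82 to 12.5 CPM in H3.3WTH3.2HWT and 5.05 to 5.7 CPM in yw).

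Among the genes that fell after Set2 loss alone, phr, which encodes photolyase, stood at 12.5, 14.2 and 15.2 CPM in Set21 and at 51.3, 55.3 and 57.3 CPM in yw. It stood at 52.9 to 59.9 CPM in H3.3WTH3.2K36R and 51.5 to 55.2 CPM in its control. Set21 lay below all others and the other 3 genotypes overlapped, with a difference of 2.03 (SE 0.05, adjusted p = 6.0e-23) and an H3.2K36R response of 0.06 (adjusted p = 0.17). hzg stood at 143 to 180 CPM in Set21 and 394 to 469 CPM in yw, with 292 to 335 and 290 to 320 CPM in the mutant and control histone strains. bru1, an RNA-binding regulator of splicing and translation, stood at 60.4 to 68 CPM in Set21 and 103 to 111 CPM in yw, while H3.3WTH3.2K36R (85.9 to 95.8 CPM) and its control (83.3 to 92.9 CPM) overlapped (difference 0.75, adjusted p = 2.7e-13).

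Genes of differentiated neurons fell in Set21, and for most of them the fall differed from the H3.2K36R response. Of 26 tested 18 were lower and 1 higher in Set2, and the difference was higher in 17 and lower in 0, with a median of 0.21. Over all genes tested 27.6% were lower and 28.9% higher in Set2, and 19.9% were higher and 21.5% lower in the difference. nAChRalpha6, a nicotinic receptor subunit, stood at 169, 207 and 219 CPM in Set21 and 441, 463 and 491 CPM in yw. It stood at 441, 452 and 492 CPM in H3.3WTH3.2K36R and 349, 397 and 423 CPM in its control, so it fell in Set2 (−1.20) and rose in H3.2K36R (0.24), a difference of 1.44 (adjusted p = 1.4e-15). VGlut, the vesicular glutamate transporter, and Rab3, a synaptic vesicle GTPase, fell in Set2 alone (−0.32 and −0.39). For VGlut yw was the genotype apart, above the other 3, while for Rab3 it was Set21, below them. para, the voltage-gated sodium channel on the X chromosome, fell in Set2 (−0.61) with a gap between the controls as large (188 to 261 CPM in H3.3WTH3.2HWT and 291 to 370 CPM in yw). The control gap exceeded the mutant gap in 7 of the 26. Summed levels ran from 7097 to 7838 CPM in Set21, 8435 to 9244 CPM in yw, 8328 to 8980 CPM in H3.3WTH3.2K36R and 7483 to 8368 CPM in H3.3WTH3.2HWT.

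Neuropeptide genes behaved alike. Of 34 tested 19 were lower and 1 higher in Set2, and the difference was higher in 19 and lower in 1, with a median of 0.37. The difference was called in 58.8% of them, beside 41.4% over all genes tested. Dh31, a diuretic hormone, stood at 19.2 to 24 CPM in Set21 and 26.9 to 32.6 CPM in yw, with 21.2 to 28.1 and 22.7 to 25.6 CPM in the mutant and control histone strains (difference 0.61). Mip, the myoinhibiting peptide, fell in Set2 alone (−0.45), and Eh, the eclosion hormone, fell in Set2 (−0.45) and rose in H3.2K36R (0.20). SIFa rose in H3.2K36R (0.34) and fell in Set2 (−0.10). Of 19 genes of Notch signalling and the E(spl) complex 8 were higher and 1 lower in the difference. That share of 47.4% called was near the 41.4% over all genes tested. E(spl)m4-BFM and E(spl)m7-HLH were called higher in H3.2K36R (0.27 and 0.25) and lower in Set2 (−0.45 and −0.26).

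Ribosomal protein genes fell slightly together in Set21. Of 83 tested 58 were lower and 3 higher in Set2, and 51 were higher and 3 lower in the difference. The difference was called in 65.1% of them, beside 41.4% over all genes tested. The median response of the list was −0.12 in Set2 and 0.01 in H3.2K36R, and its median difference was 0.14. Summed levels ran from 58860 to 66920 CPM in Set21 and 65540 to 69110 CPM in yw, ranges that overlap, and from 66790 to 71130 CPM and 64230 to 72330 CPM in the mutant and control histone strains. RpL18, named by the smallest p of this list after RpS10a and RpS5b, had another pattern. It stood at 800 to 906 CPM in yw, and 595 to 683 CPM in Set21 overlapped with both histone strains (585 to 663 CPM), so yw was the genotype apart. Mitochondrial ribosomal proteins had 7 of 72 higher and 13 lower, oxidative phosphorylation 7 of 73 higher and 15 lower, and the proteasome 3 of 32 higher and 4 lower, all below the share over all genes.

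RpL18 was not alone in this. Sec31, of the COPII vesicle coat, was called lower in Set2 alone with a difference of 1.02 (adjusted p = 1.3e-22). It stood at 301, 310 and 319 CPM in yw and at 148, 154 and 160 CPM in Set21, while H3.3WTH3.2K36R (152 to 160 CPM) and H3.3WTH3.2HWT (153 to 157 CPM) lay at the level of Set21. Pdcd4, an inhibitor of translation, stood at 1360 to 1460 CPM in yw and 531 to 673 CPM in the other 3 genotypes. The cytochrome P450 genes Cyp4p1 and Cyp4p2 gave the largest positive differences of the genes named, 11.58 and 12.48, and stood at 14.8 to 22.2 and 56.6 to 70.4 CPM in yw and at or below 0.261 CPM elsewhere, so these sizes rest on near-zero levels. In the other direction spartin stood at 5.89 to 6.6 CPM in yw and 13.7 to 17.5 CPM elsewhere. Sting, the sensor of cyclic dinucleotides, stood at 1.7 to 2.19 CPM in yw, 7.43 to 8.76 CPM in Set21 and 14.6 to 20.3 CPM in the histone strains. Ir76a, an ionotropic receptor, stood at 0.346 to 0.442 CPM in yw and 6.62 to 11 CPM elsewhere. The eye pigment gene w, which the name yw marks as mutant, stood at 0.0804 to 0.165 CPM in yw and 0.34 to 0.719 CPM in Set21, against 190 to 331 CPM in the histone strains, a gap of 11.10 between the controls.

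Opposite responses were found in 342 genes higher in H3.2K36R and lower in Set2 and 374 of the reverse. In the first group H3.3WTH3.2K36R was apart in 33% and Set21 in 40.6%. Dhc93AB, an axonemal dynein heavy chain, stood at 8.36, 9.26 and 9.85 CPM in H3.3WTH3.2K36R and 2.59, 3.03 and 3.47 CPM in its control. It stood at 0.736, 1.04 and 1.19 CPM in Set21 and 2.9, 3.25 and 4.59 CPM in yw, with responses of 1.61 and −1.80. The controls overlapped and the mutants lay on opposite sides of them, a difference of 3.41 (SE 0.16, adjusted p = 3.5e-16). mav, a TGF-beta ligand on chromosome 4, did the same at 51.8 to 57.9 CPM in H3.3WTH3.2K36R, 16.6 to 21.9 CPM in Set21 and 34.3 to 42.6 CPM in the controls (difference 1.43). SPARC, a collagen-binding protein of basement membranes, and mthl10, a receptor of the Methuselah family, had differences of 0.76 and 1.01 of the same kind.

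In the reverse group Col4a1, a collagen IV chain, stood at 20.1, 24.3 and 28.6 CPM in H3.3WTH3.2K36R and 32.2, 46.7 and 59.7 CPM in its control. It stood at 155, 159 and 180 CPM in Set21 and 35.5, 45 and 52.2 CPM in yw, a difference of −2.78 (SE 0.27, adjusted p = 1.9e-09). PolQ, the polymerase of end joining by microhomology, stood at 59.1 to 74.5 CPM in Set21, 26 to 28.6 CPM in H3.3WTH3.2K36R and 33.1 to 34.9 CPM in both controls, which did not stand apart (difference −1.39, adjusted p = 3.0e-18). T3dh, an iron-dependent alcohol dehydrogenase, stood at 11 to 14.3 CPM in Set21, 2.87 to 4.08 CPM in H3.3WTH3.2K36R and 5.12 to 6.76 CPM in the controls (responses of −0.74 and 1.25). Dbp80, a DEAD-box helicase, and Tif-IA, an initiation factor of RNA polymerase I, had smaller opposite responses, −0.39 against 0.26 and −0.20 against 0.20. His3.3A, 1 of the pair of H3.3 genes, fell in H3.2K36R (−0.22) and rose in Set2 (0.12). His3.3B fell in Set2 alone (−0.15), and its difference was 0.13 (adjusted p = 0.006). For His3.3B yw was the genotype apart, above the other 3, and Set21 was not apart.

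Genes that moved in both mutants gave the base against which these stand. Of the 885 with a difference in size, 119 rose more in H3.2K36R, with a median response of 3.12 against 1.10 in Set2, and 307 rose more in Set2. Another 116 fell more in H3.2K36R and 343 fell more in Set2. Taf12L, a paralog of a TFIID subunit, and Rcd-1r, a paralog of a CCR4-NOT subunit, were in the first of these groups, with responses of 2.15 and 1.10 and of 5.01 and 2.38. robo2, an axon guidance receptor, and nerfin-1, a zinc-finger factor of young neurons, fell in both and more in Set2 (−0.18 against −0.48 and −0.24 against −0.67). Acadvl, an acyl-CoA dehydrogenase, fell more in H3.2K36R (−0.58 against −0.28). Shared genes included Arc1, a Gag-like protein, at 226 to 415 CPM and 117 to 190 CPM in H3.3WTH3.2K36R and its control and 267 to 390 and 115 to 187 CPM in Set21 and yw, so mutants overlapped with each other and not with controls. Its responses were 1.12 and 1.14, with a difference of −0.02 (95% interval of −0.24 to 0.21). agt, a DNA alkyltransferase, and spel1, a mismatch repair protein, rose in both, by 0.96 and 1.14 and by 0.33 and 0.30. Ctps, the CTP synthase, Nadsyn, an NAD synthase, and cin, of molybdenum cofactor synthesis, fell in both by between −0.29 and −0.35.

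Of the larger responses, at least 1 on the log2 scale, 719 genes rose and 141 fell in H3.2K36R. Of the 719, Set2 was called in the same direction in 379 and in the opposite direction in 39, and was not called in 301. The Set2 interval lay within 0.5 of 0 in only 19 of those 719 genes. Of the 1126 genes that rose as much in Set2, H3.2K36R was called in the same direction in 454, in the opposite direction in 40 and not at all in 632, with its interval within the bound in 73.

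Genes for writers, erasers and readers of lysine 36 methylation moved little. Of 13 tested 4 were higher and 4 lower in the difference, Set2 itself included, while 6 were lower in H3.2K36R, 7 lower in Set2 and 0 higher in either. JIL-1, a histone kinase, and Spt6, an elongation factor, fell in Set2 alone (−0.23 and −0.18), and the controls differed by −0.12 and −0.14. ash1, the methyltransferase of the trithorax group, fell in H3.2K36R alone (−0.18). Of 15 H3.3 genes and histone chaperones 3 were higher and 6 lower in the difference, among them yem, of the HIRA pathway, which fell in H3.2K36R alone (−0.14). Of 15 heterochromatin proteins 3 were higher and 4 lower. HP4 and HP5 fell more in Set2 (−0.35 and −0.44) than in H3.2K36R (−0.11 and −0.21), while Su(var)3-7 fell in H3.2K36R alone (−0.16). Of 28 Polycomb and trithorax group genes 3 were higher and 10 lower in the difference, with ph-d falling more in Set2 (−0.45 against −0.12) and E(z) at −0.05 against 0.10.

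Of 28 Hox genes and other Polycomb targets 15 were lower and 2 higher in H3.2K36R, 12 lower and 0 higher in Set2, and 7 lower and 4 higher in the difference. The share called in the difference was 39.3%, near the 41.4% over all genes tested. Ubx, a Hox gene of the posterior thorax, stood at 50.5 to 73 CPM in H3.3WTH3.2K36R and 79.9 to 87 CPM in its control, and at 20.6 to 29.6 and 20.1 to 27.3 CPM in Set21 and yw. It fell in H3.2K36R alone (−0.38, difference −0.49, adjusted p = 3.4e-04), with a larger gap between the controls (1.80). pb, a Hox gene of the head, rose in H3.2K36R (0.40) and fell in Set2 (−0.19), and vg, a wing selector, fell in both (−0.61 against −0.35).

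Markers of tissues that lie next to the brain moved with the difference as well. The ring gland, an endocrine gland attached to the larval brain, gave 10 lower and 0 higher of 12 tested, with a median of −1.34. sro, a step of ecdysone synthesis, stood at 7.16 to 9.98 CPM in Set21 and 0.995 to 2.64 CPM in yw, while H3.3WTH3.2K36R (2.29 to 8.37 CPM) and its control (2.9 to 6.83 CPM) overlapped widely. nvd, the first enzyme of that synthesis, fell in H3.2K36R alone, at 3.57 to 10.7 CPM against 9.86 to 23 CPM in the control. The summed ring gland level ran from 276.5 to 470.7 CPM in yw, 515.4 to 706.1 CPM in Set21, 387 to 699.8 CPM in H3.3WTH3.2K36R and 480.5 to 821.5 CPM in H3.3WTH3.2HWT, so yw alone lay mostly below, and the control gap was the larger in 9 of the 12. GstE14, a glutathione transferase of ecdysone synthesis, and Cyp6g2 had differences of −2.57 and −2.70 and their lowest medians in yw as well (2.29 and 5.18 CPM). Of 19 hemocyte and basement membrane genes 11 were lower and 3 higher in the difference. The shares called were 83.3% for the ring gland list and 73.7% for the hemocyte list, beside 41.4% over all genes tested. PPO1, a prophenoloxidase of crystal cells, stood at 0.0185 to 0.121 CPM in H3.3WTH3.2K36R and at or above 0.648 CPM in every other library, and Hml and NimC1, chosen after values were seen, had differences of −2.32 and −2.74. Summed hemocyte levels ran from 1034 to 1127 CPM, 913.7 to 1202 CPM, 1021 to 1100 CPM and 879.3 to 929.2 CPM in H3.3WTH3.2K36R, H3.3WTH3.2HWT, Set21 and yw. Of 23 immune genes 8 were lower and 0 higher, among them CecA1, an antimicrobial peptide, and Rel, an NF-kappaB factor (difference −0.40). These 8 made up 34.8% of the 23, below the 41.4% called over all genes tested. Of the 29 immune genes listed, 25 had medians under 1 CPM in every genotype, so their calls rest on low levels. No list member was at 0 in all 24 libraries, and the part of attached tissue in these values was not tested.

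The other lists of tissues and responses had called members in both directions or few in all. Muscle gave 2 of 17 higher and 3 lower, with Mhc, the muscle myosin, at 0.861 to 1.87 CPM in Set21 and 2.63 to 4.84 CPM in yw. Glia gave 2 of 13 higher and 4 lower, with alrm, an astrocyte gene, rising in Set2 alone (0.51), and Eaat1, a glutamate transporter, falling in both. Fat body gave 1 of 12 higher and 1 lower, imaginal discs 4 of 17 and 6, salivary gland 0 of 9 and 1, and cuticle and trachea 0 of 16 and 2. Detoxification genes gave 4 of 19 higher and 7 lower, with the controls further apart than the mutants in 8 of the 19 genes. Chemoreceptors gave 6 of 57 higher and 14 lower, with Ir40a at 4.44 to 7.9 CPM in Set21, 0.322 to 0.563 CPM in yw and 2.65 to 3.85 CPM in H3.3WTH3.2K36R. Odorant binding proteins gave 3 of 21 and 4, the ecdysone response 3 of 21 and 4, and heat shock genes 1 of 16 and 2.

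**Figure D4:**
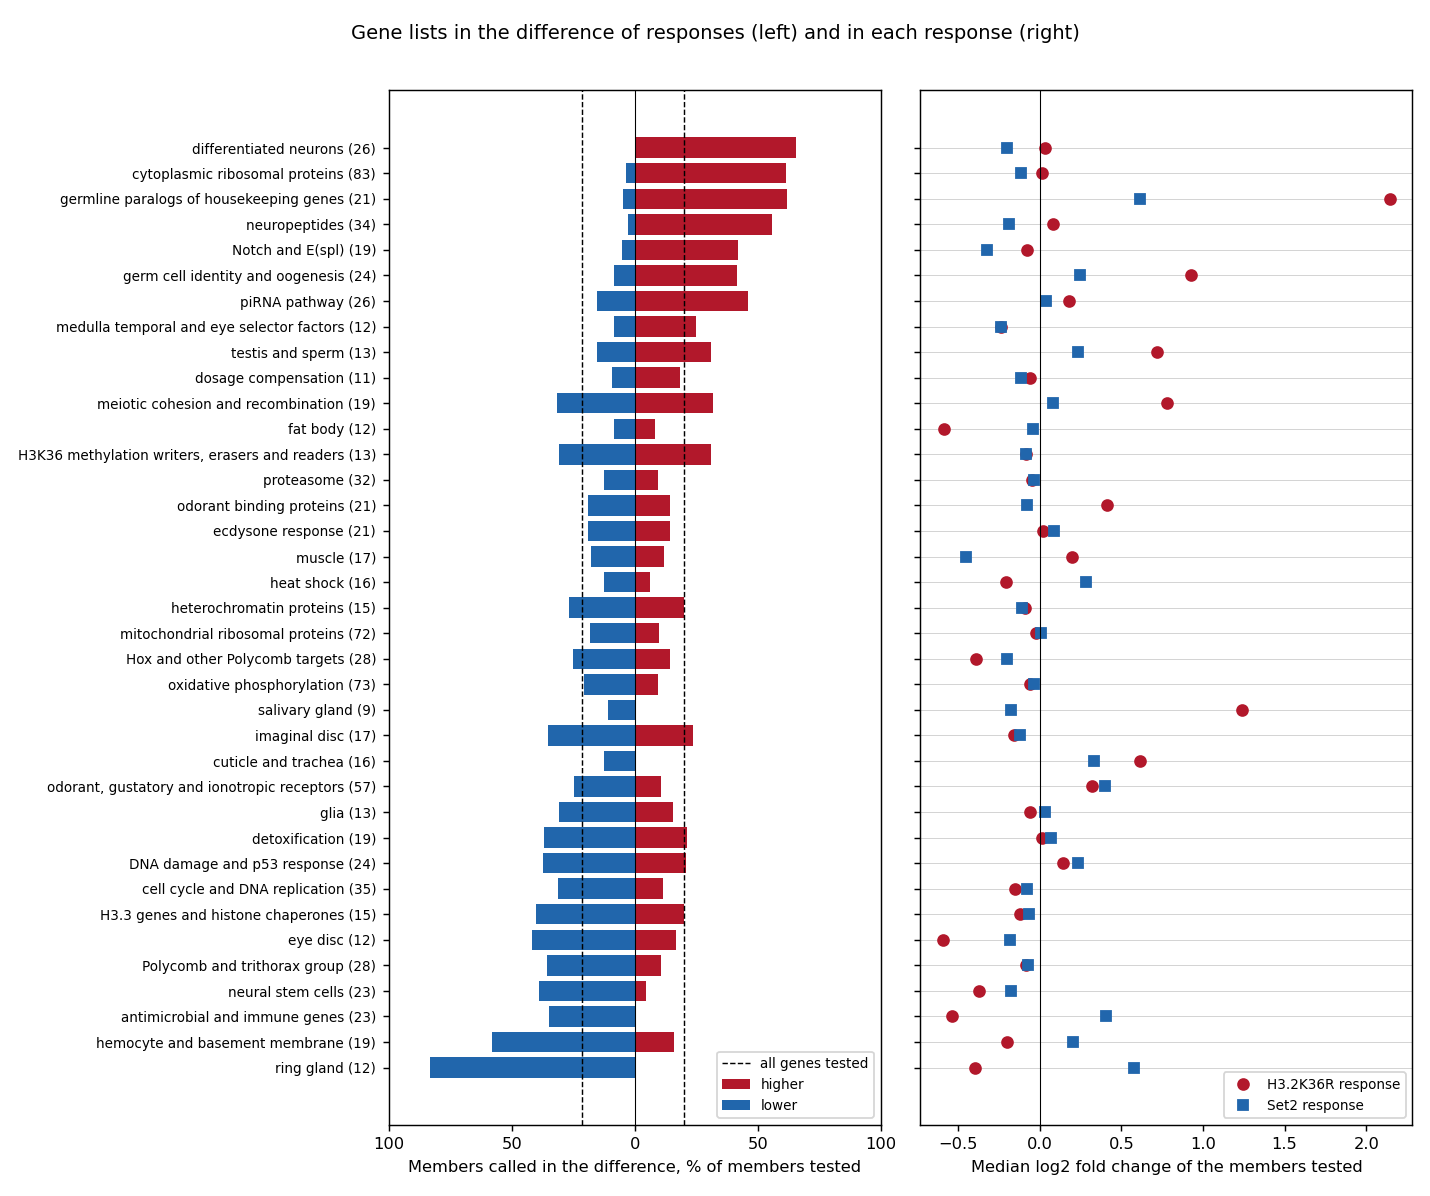
The left panel gives the percentage of tested members of each gene list called higher and lower in the difference, with dashed lines at the 19.9% and 21.5% over all genes. The right panel gives the median log2 response of each list in H3.2K36R and Set2, where the neuron and neuropeptide lists lie below 0 in Set2 and above 0 in H3.2K36R.

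Genes of the X chromosome were on the whole lower in Set21 relative to yw, and the H3.2K36R response showed no shift of the X that passed the test. Of 2016 X-linked genes tested 597 were higher and 223 lower in the difference, with a median of 0.07, beside medians of −0.04 to −0.02 on arms 2L, 2R, 3L and 3R. An X-to-autosome shift was computed in each library as the median over X-linked genes minus that over those 4 arms of log2 CPM centred per gene. It was −0.10 in the Set2 response (exact permutation p = 0.005, the smallest its 400 assignments can give, 2-sided) and 0.0038 in the H3.2K36R response (exact p = 0.675). The difference of the shifts was 0.102 (exact permutation p = 0.00618 over 160000 assignments). In males the Set2 shift was −0.17 and in females −0.031, each with an exact p of 0.1, the smallest that 20 assignments can give. The H3.2K36R shift was −0.0114 in males and 0.0178 in females. The male difference was 0.159 (exact p = 0.095) and the female difference 0.0488 (exact p = 0.02), and whether these differ was not tested on the shift itself. For the differences of shifts, labels were shuffled within both pairs, so the p-values refer to no shift in either pair. A shift in 1 pair widens the spread of these assignments, so the p-values do not rank the sexes. With means over genes in place of medians the difference of shifts was 0.205. Of 11 dosage compensation genes tested 2 were higher and 1 lower in the difference. msl-3, the reader of lysine 36 methylation in that complex, fell in Set2 alone (−0.20), and msl-1 fell in H3.2K36R alone (−0.06). For msl-3 yw was the genotype apart, above the other 3, and Set21 was not apart, so a background difference cannot be told apart from a Set2 effect. roX1, roX2 and msl-2 had differences of 0.10, −0.59 and −0.04 that did not pass (adjusted p = 0.83, 0.5 and 0.74). Sxl, the switch of sex determination, fell in both with no called difference.

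**Figure D5:**
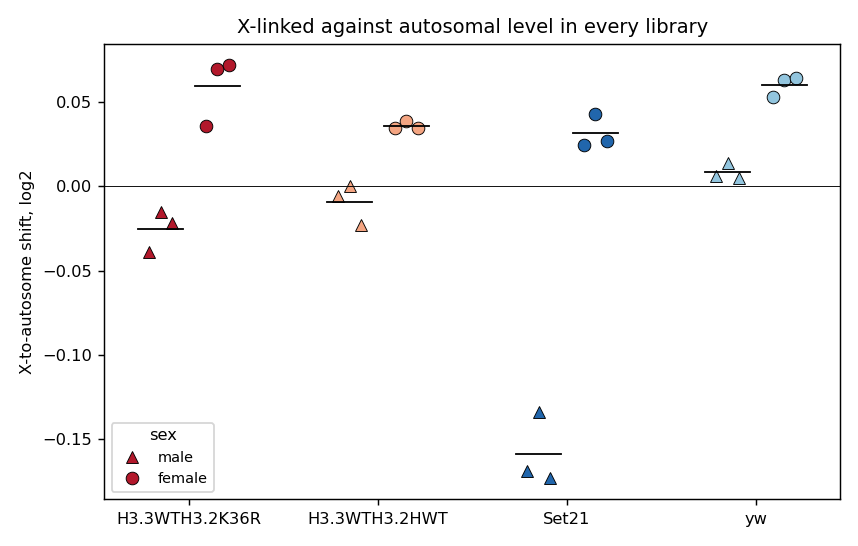
The X-to-autosome shift in log2 units of every library, by genotype and sex, with a bar at each group's mean. Set21 males lie between −0.173 and −0.134 and yw males between 0.00483 and 0.014, while males of both histone strains lie between −0.039 and 0.000327.

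The difference of responses depended on sex in 66 genes, 0.542% of those tested, against 859 at an unadjusted p under 0.05. The count was 43 without the female libraries with the most roX2, 40 without H3.3WTH3.2K36R male replicate 3, 43 without yw male replicate 1 and 123 with DESeq2. In 38 it was higher in males, and 37 of these lay on the X chromosome. In 28 it was lower in males, of which 21 lay on chromosome 4, the small, largely heterochromatic autosome, and 3 on the X. Of the 66, 35 had opposite signs in the sexes. PMCA, a calcium pump on chromosome 4, had a difference of −0.28 in males and 0.28 in females, which cancelled in the mean (−0.00, adjusted p = 0.97). Its Set2 response was 0.14 in males and −0.37 in females. Gyf, Slip1 and pho, the last a DNA-binding Polycomb protein, had differences of −0.28, −0.34 and −0.38 in males and 0.10, 0.13 and 0.10 in females. gd, a serine protease on the X, stood at 0.336 to 2.32 CPM in Set21 and 5.3 to 9.65 CPM in the other 3 genotypes, with a difference of 1.79 in males and 3.71 in females. Over chromosome 4 as a whole 33 of 105 genes were higher and 28 lower in the difference, with a median of −0.15 in males and 0.20 in females. On the Y chromosome 2 of 29 genes were higher and 6 lower.

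The share of genes called rose with the level. In 5 equal groups of genes by mean level it was 18.2%, 41.3%, 45.8%, 49% and 52.8% from the lowest to the highest, while called differences beyond 1 (log2) made up 18% and 22.8% of the first groups and 0.534% of the last. In the group with the lowest level 523 genes were higher and 60 lower in H3.2K36R, and 710 higher and 136 lower in Set2. By exon length the share called ran from 29.8% in the shortest group to 49.4% in the longest. Longer genes collect more reads, and the part of depth in these shares was not tested. The 10 nearest tested genes on each side of Set2 were read as a check on effects linked to the allele. Of these 20 genes 12 were called in the Set2 response, 9 in the H3.2K36R response and 5 in the difference, with median sizes of 0.174 and 0.192 for the responses. Over all genes tested the Set2 response called 28.9% higher and 27.6% lower, and the H3.2K36R response 19.4% and 20.5%. The difference was called in 41.4% of all genes tested.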

How the data were processed

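The deposited values were raw whole-number counts per gene, 1 column per library, without normalization by the authors. Per the submitters' processing notes STAR 2.7.2a and Subread 2.0.3 were used. The build, annotation and strand setting were not given in the sources used here, and so overlapping and antisense genes and near-identical copies are uncertain. Per the labels' protocols RNA was taken up in Trizol, cleaned with a Zymo kit and made into KAPA stranded mRNA libraries, read as pairs of 100 bp. Even numbers made up 79.2% to 85.1% of the values from 1 to 4, so values are called reads.

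Symbols and arms came from Ensembl release 115, which matched 17527 of 17606 identifiers (79 unmatched held 0.401% of reads). Computations used R 4.3.3, edgeR 4.0.16, limma 3.58.1 and DESeq2 1.42.0. Genes passing filterByExpr (minimum count 10) entered 1 quasi-likelihood fit of edgeR over 12 group means of all 36 libraries, with 24 residual degrees of freedom, TMM factors of 0.97 to 1.055 and a common biological CV of 0.118. The tests were 2-sided, called at an adjusted p of 0.05 over all 12167 genes. Within groups, chi-square values divided by their degrees of freedom were 7.86 to 86.2 for pairs of libraries. Counting error alone gives 1 for independent reads. It gives more where both reads of a pair are counted, which the share of even values points to. The parts of counting error and of variation among libraries in the precision were not separated.

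The script was tested on simulated data with 100 genes each changed by 1 and by 0.5 on the log2 scale. Of these 93 and 83 were called, as were 8 of 11637 unchanged genes in the simulated difference of responses. The changed genes were drawn from those with a mean expected count over 100, so recovery at lower levels was not tested. Named genes were Set2, His3.3A, His3.3B, Sxl, msl-2 and both roX genes, and per direction the 8 largest differences above a 5 CPM level without overlap between libraries. To these came 4 genes per class, up to 4 called members of each of 37 gene lists, up to 5 sex-dependent genes and 4 by control gap. The comparison, lists and rule were chosen with earlier results of these data known. Deviations of same-numbered mutant and control libraries correlated above 0.1 in 5 of 6 pairs of the histone strains (all 3 female pairs, 0.105 to 0.34, and 2 of 3 male pairs) and in 0 of 6 pairs of Set21 and yw (−0.0868 to 0.022). The same number was the best match in 4 of the 6 histone pairs, 2 of 3 in each sex, and in 0 of 6 pairs of Set21 and yw. The labels state no pairing, and the replicate block is an alternative. Alternatives were other normalizations, filters, tests, sample sets and thresholds, a replicate block, each sex alone and each library left out. Promoter and protein sequences were not used here.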

Additional observations from a re-analysis of the deposited data

Results flagged for a closer look

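The difference of responses itself differed between the sexes, by the interaction term of the same edgeR fit with Benjamini-Hochberg adjustment, in 7 of the genes taken by the naming rule. Given as the male value minus the female value on the log2 scale, it was 0.3447 for HP5 (0.40 in males and 0.06 in females) and −0.3909 for ND-49, a complex I subunit on chromosome 4 (−0.42 and −0.03). It was −1.922 for gd, which fell in Set2 in both sexes (−2.23 in males and −4.04 in females). On chromosome 4 it was −0.5571 for PMCA, −0.3838 for Gyf, −0.4664 for Slip1 and −0.4766 for pho, and in these 4 the difference was negative in males and positive in females. The number of sex-dependent genes moved with single libraries, as given under the processing.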

How the results depend on the processing

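Counts of called genes stayed within 1.5 times their values under other normalizations, filters, sample sets and the replicate block, and the exceptions follow. The number of sex-dependent genes (66) was 123 with DESeq2, 26 at an adjusted p of 0.01 and 43 without the female libraries with the most roX2. With each library left out it ran from 40 to 72, with 40 without H3.3WTH3.2K36R male replicate 3 and 43 without yw male replicate 1. Male libraries alone gave 339 opposite genes, 407 in both with 1 larger and 3091 in the H3.2K36R response. Female libraries alone gave 1524 higher and 1558 lower, 526 in H3.2K36R alone, 335 opposite, 285 in both with 1 larger, 1051 shared and 3018 in the H3.2K36R response. An adjusted p of 0.01 gave 403 opposite genes, 442 in both with 1 larger and 951 with the larger control gap. The difference of X-to-autosome shifts in males alone was 0.159 (exact permutation p = 0.095, with labels shuffled within both pairs). Fewer libraries or a stricter threshold are part of these settings by construction, and otherwise the cause was not tested.

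With each library left out in turn, 2121 to 2414 genes were higher and 2482 to 2816 lower, 798 to 967 were in H3.2K36R alone, 2278 to 2498 in Set2 alone, 635 to 743 opposite, 744 to 913 in both with 1 larger and 1481 to 1711 shared. The H3.2K36R response held 4425 to 5098 genes, the Set2 response 6500 to 6920, the larger control gap 1335 to 1509, and the shift of the X was 0.0969 to 0.109. Of the 5038 genes 4013 were called in every such fit. The replicate block gave 2451 higher and 2529 lower, with 4747 of the 5038 still called. It ended the call of RpL37-2 (adjusted p = 0.081) and of no other gene whose difference is given above. DESeq2 gave 2582 higher and 2642 lower, and TMM factors from arms 2L, 2R, 3L and 3R gave 2602 and 2414.

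Of 7377 values of single genes under alternatives 7214 kept their call status, 158 lost the call and 5 turned direction. A turn was counted only where the main or the alternative value was called. Values called in neither that changed sign are among the 7214. The Set2 response of PMCA was 0.1356 in males alone, the H3.2K36R response of Sxl 0.06473 in females alone, and the differences of Gyf, Slip1 and pho were 0.1016, 0.1285 and 0.09815 in females alone. Genes near 0 CPM in a control have poorly fixed fold changes at this depth.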
